A study of Mus musculus with 23 samples.

Results

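Respiratory complex I was examined here through 36 nuclear genes named for its subunits, all with the symbol stem Nduf, in the proximal small intestine of young mice fed galactose or glucose. The genes were taken by name, and each symbol matched a single Ensembl identifier among the 55416 gene rows of the count tables. All 36 passed the filter on low counts, among 13405 genes tested. Gene expression had been measured by RNA-seq in scrapings of the proximal small intestine of female C57BL/6JRccHsd mice, 1 library per mouse. Galactose mice (label GAL42, n = 12) received a pelleted diet in which galactose and glucose each supplied 16% of energy. Glucose mice (GLU42, n = 11) received a diet otherwise alike, in which glucose supplied 32% of energy. Both diets were eaten for 3 weeks from 21 days of age, and tissue was taken at 42 days. Both groups thus ate glucose, and the galactose diet replaced part of it.

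Complex I, the NADH:ubiquinone oxidoreductase, is where electrons from NADH enter the mitochondrial respiratory chain. Its peripheral arm, in the matrix, passes electrons from NADH over a flavin and a row of iron-sulphur clusters to ubiquinone. Its membrane arm moves protons across the inner membrane, and that gradient drives ATP synthase. The core of the membrane arm is encoded in mitochondrial DNA, while the core of the peripheral arm and all accessory subunits are encoded in the nucleus. Absorptive enterocytes, the main cells of the intestinal villus, are rich in mitochondria. In cultured mammalian cells, medium with galactose in place of glucose is a long-used means of making cells lean on oxidative phosphorylation. The comparison asks whether the subunit transcripts differ in the intestine when galactose replaces part of dietary glucose.

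Libraries held 15382583 to 17174721 counts in genes. The 10 enterocyte markers checked were all abundant, each at a mean of at least 2465 CPM (counts scaled to the library total), and their sum ranged from 65560 to 88440 CPM on galactose (median 76357) and from 60757 to 92927 CPM on glucose (median 77165). Of the 10, 7 had a positive log2 difference, with 2 higher and 2 lower on galactose at an unadjusted p under 0.05. Some libraries stood apart. Galactose replicate 12, labelled female, held 225 counts of 4 Y-linked genes, where any other library held at most 1. It also held 4 counts of Xist, against 778 to 2351 in the other libraries. Both values go against its label, and it was kept in its group. Galactose replicate 2 held 467 CPM of 6 pancreatic acinar markers, against at most 3.21 CPM elsewhere. Galactose replicate 7 had the lowest complex I level of its group, and results are given without it below. Markers of other cell types were counted as well, and 0 of them passed an adjusted p under 0.05 by edgeR. At an unadjusted p under 0.05, 8.63% of all tested genes were higher on galactose and 5.72% lower. T cell markers had positive differences in 6 of 6 genes, 4 of them at an unadjusted p under 0.05, and a sum of 42.4 to 97.5 CPM (median 59.0) on galactose and 19.1 to 86.3 CPM (median 47.6) on glucose. B and plasma cell markers were positive in 3 of 3 tested genes, 2 at an unadjusted p under 0.05, while the median of their sum was 94.7 CPM on galactose and 98.4 CPM on glucose. Stem cell markers were negative in 4 of 4 genes, 2 at an unadjusted p under 0.05, with a sum of 50.6 to 155 CPM (median 105) on galactose and 69.8 to 198 CPM (median 125) on glucose. Goblet cell markers, and those of macrophages and dendritic cells, had 1 gene each lower at an unadjusted p under 0.05, and 1 of 4 and 1 of 5 genes positive. Paneth cell (4), smooth muscle (5) and fibroblast (4) markers had 0 positive genes and 0 at an unadjusted p under 0.05. The part of these cell types in the results below was not tested. Fewer cells of a type and less RNA per cell cannot be told apart in such bulk samples.

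The promoters of the subunit genes are shown first, because the subunit transcripts varied together from mouse to mouse, as described below. RefSeq windows on GRCm38.p6, each with 250 bases before and 50 after a gene's start, were found by symbol for 33 of the 36 genes. Ndufs1, Ndufb9 and Ndufa2 had none. Capitals mark matches, on either strand, to GCGCA, any base and GCGC (the NRF1 motif), CCGGAAG (the ETS motif bound by GABPA), AAGATGGC (YY1) or TCAAGGTCA (ESRRA). Those motifs belong to factors known to act on nuclear genes of respiration. The windows shown are those of the 4 genes of smallest p between the diets, and that of Ndufs6, which holds matches of both the NRF1 and the YY1 kind.
Ndufa11, chr17:56717512-56717811, plus strand: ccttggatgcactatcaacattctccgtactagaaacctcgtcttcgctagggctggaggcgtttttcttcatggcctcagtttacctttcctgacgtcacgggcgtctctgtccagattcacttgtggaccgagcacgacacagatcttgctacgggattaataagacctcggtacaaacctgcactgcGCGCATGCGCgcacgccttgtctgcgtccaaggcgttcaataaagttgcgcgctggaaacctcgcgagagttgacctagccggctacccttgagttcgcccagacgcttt
Ndufv1, chr19:4012706-4013005, minus strand: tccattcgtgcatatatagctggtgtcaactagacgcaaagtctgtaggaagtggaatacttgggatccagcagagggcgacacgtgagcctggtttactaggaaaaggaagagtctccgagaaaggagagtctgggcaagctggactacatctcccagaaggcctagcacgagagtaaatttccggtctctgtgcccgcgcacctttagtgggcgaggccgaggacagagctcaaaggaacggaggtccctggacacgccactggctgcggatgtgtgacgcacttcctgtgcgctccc
Ndufs3, chr2:90904672-90904971, minus strand: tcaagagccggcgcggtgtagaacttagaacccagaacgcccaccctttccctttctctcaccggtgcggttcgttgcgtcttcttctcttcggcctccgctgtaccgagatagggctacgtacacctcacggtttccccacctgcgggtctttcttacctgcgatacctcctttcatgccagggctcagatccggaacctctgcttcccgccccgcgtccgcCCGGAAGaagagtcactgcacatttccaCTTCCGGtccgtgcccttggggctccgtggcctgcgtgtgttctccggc
Ndufs4, chr13:114388045-114388344, minus strand: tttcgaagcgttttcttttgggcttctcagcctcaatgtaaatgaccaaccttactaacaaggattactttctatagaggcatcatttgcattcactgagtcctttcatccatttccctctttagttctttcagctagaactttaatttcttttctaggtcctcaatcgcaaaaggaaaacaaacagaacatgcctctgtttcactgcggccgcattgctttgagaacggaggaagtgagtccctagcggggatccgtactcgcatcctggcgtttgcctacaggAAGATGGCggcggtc
Ndufs6, chr13:73328433-73328732, minus strand: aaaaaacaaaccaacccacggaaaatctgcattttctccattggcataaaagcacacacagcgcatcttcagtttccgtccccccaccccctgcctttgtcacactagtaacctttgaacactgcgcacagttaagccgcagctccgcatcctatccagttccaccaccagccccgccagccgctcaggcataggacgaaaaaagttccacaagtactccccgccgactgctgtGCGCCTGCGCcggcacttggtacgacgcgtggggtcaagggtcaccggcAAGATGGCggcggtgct

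The window of Ndufa11 holds an NRF1 match, that of Ndufs3 a pair of ETS matches, that of Ndufs4 a YY1 match and that of Ndufs6 both an NRF1 and a YY1 match. The window of Ndufv1 holds none of the 4 motifs. Over the 33 genes with a window, 7 held the NRF1 letters (21.2%), 4 the ETS letters (12.1%), 7 the YY1 letters (21.2%) and 0 the ESRRA letters. Of all 32851 windows in the table, 4.60% held the NRF1, 8.86% the ETS, 2.75% the YY1 and 0.423% the ESRRA letters. Among 10061 other tested genes with a window, the shares were 11.003%, 19.8%, 5.15% and 0.328% for the same motifs in that order. At least 1 motif was present in 17 of the 33 complex I genes (51.5%), against 31.7% of the other tested genes with a window, and matches of different motifs overlapped in 0 cases. All 7 YY1 matches began between bases 273 and 289 of the window, after the gene's start, and their letters include an ATG. Such matches describe the letters and say nothing of binding. The member windows had a median GC content of 59.0%, against 52.7% in all windows, and GC content was not computed for the other tested genes alone.

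In the diet comparison all 36 genes had a positive log2 difference, galactose minus glucose, but 0 passed the test. By the quasi-likelihood test of edgeR, 0 of 13405 genes passed an adjusted p under 0.05, a background of 0%, while DESeq2 called 86 genes. At an unadjusted p under 0.05, 28 of the 36 were higher on galactose and 0 lower, where 8.63% of all tested genes were higher and 5.72% lower. Positive differences were found in 49.5% of all tested genes. The median difference of the 36 was 0.21, which is 1.15-fold, and they ranged from 0.03 to 0.35. The median over all tested genes was -0.00174. The smallest adjusted p among the 36 was 0.135, shared by 28 genes of the series, and the member of smallest p ranked 18 among all genes. Differences were thus small and of 1 sign, at standard errors (SE) of 0.05 to 0.12. All 36 were also positive with 3 other scalings of the libraries. The groups overlapped for every member, and among all tested genes 0% had every galactose library above every glucose library.

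**Figure D1:**
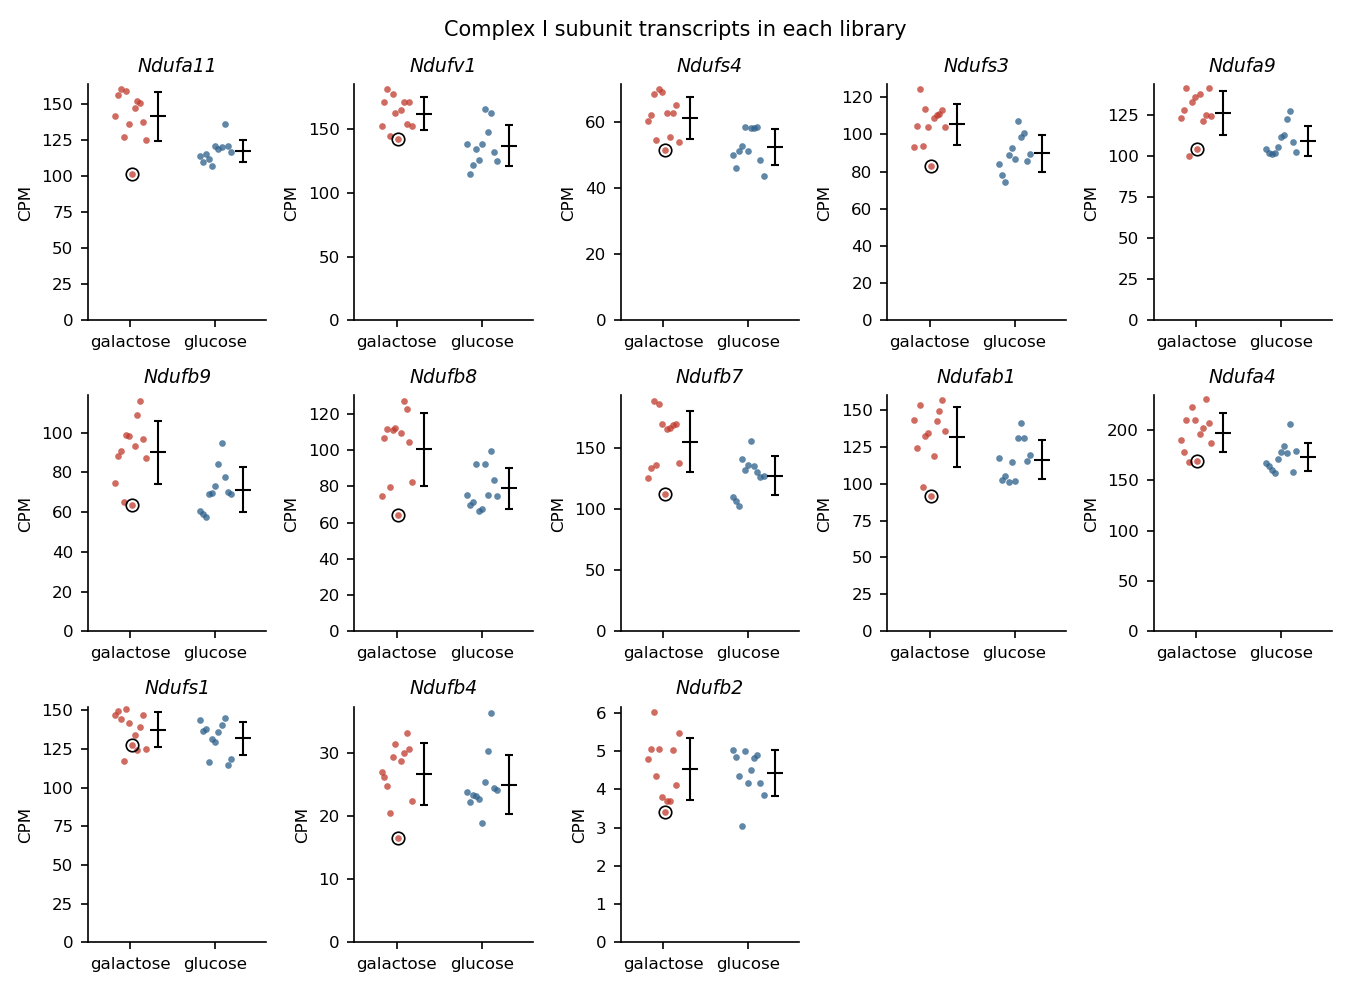
CPM of 13 complex I genes (vertical axes, from 0) in each of 12 galactose libraries (red, left) and 11 glucose libraries (blue, right), with black marks for mean ± SD. The first 8 panels are the members of smallest p, from Ndufa11 to Ndufb7. Ndufab1 and Ndufa4 follow, and Ndufs1, Ndufb4 and Ndufb2 have the largest p. The circle marks galactose replicate 7, at or near the bottom of its group in most panels.

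All 6 core subunits of the peripheral arm, most of which carry the flavin or iron-sulphur clusters, had positive differences (median log2 difference 0.23). Of them, 5 had an unadjusted p under 0.05. Over all tested genes 49.5% were positive and 8.63% higher at that p. Short transcripts ran higher, as described below. Among other genes with a longest transcript of up to 1206 bases, the shares were 75.9% and 19.3%. Ndufv1, which binds NADH and the flavin, had 142 CPM in the lowest, 164 in the median and 182 in the highest galactose library, against 115, 134 and 166 CPM in glucose libraries. All 12 galactose libraries lay above the glucose median, and 8 of 11 glucose libraries lay below the lowest galactose library. The difference came to 0.24 ± 0.06 (log2, SE), at an edgeR p of 0.000451 unadjusted and 0.138 adjusted. Ndufs3, a core subunit of the ubiquinone-binding part that carries no cluster, ranged from 83.2 to 124 CPM on galactose (median 107) and from 74.2 to 107 CPM on glucose (median 88.9). In 11 of 12 galactose libraries it stood above the glucose median, and 6 of 12 exceeded the highest glucose library (log2 difference 0.23 ± 0.06, edgeR adjusted p = 0.138). Ndufs7, which holds the last iron-sulphur cluster before ubiquinone, had a log2 difference of 0.24 ± 0.08. Ndufs8 and Ndufv2, both iron-sulphur subunits, had 0.23 ± 0.08 and 0.21 ± 0.08. Ndufs1, the largest subunit and the carrier of further clusters, stood at 117 to 151 CPM (median 140.5) on galactose and 115 to 145 CPM (median 136) on glucose. Its ranges were nearly the same, and 7 of 12 galactose libraries lay above the glucose median (log2 difference 0.06 ± 0.05, edgeR p = 0.282 unadjusted and 0.643 adjusted). With a transcript of 2661 bases it is the longest of these 6 genes.

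The 9 accessory subunits of the peripheral arm had a median log2 difference of 0.21, all 9 positive and 8 at an unadjusted p under 0.05. The shares over all tested genes were 49.5% positive and 8.63% higher at that p. Ndufs4, a small subunit whose loss in mice gives a fatal encephalopathy, had 51.5, 62.5 and 70.2 CPM in the lowest, median and highest galactose library, against 43.6, 51.5 and 58.7 CPM on glucose. Every galactose library lay above the glucose median and 8 of 12 above the highest glucose library (log2 difference 0.23 ± 0.06, edgeR adjusted p = 0.138). Ndufa9, a dehydrogenase-like subunit at the joint of the arms, had 99.99, 126 and 141 CPM on galactose, against 101, 105 and 127 CPM on glucose. The lowest libraries of the diets were alike for it, and 10 of 12 galactose libraries lay above the glucose median (0.21 ± 0.06, edgeR adjusted p = 0.138). The other accessory genes were Ndufa2 and Ndufa5 at 0.24 and 0.23, the zinc-binding Ndufs6 at 0.21, Ndufv3 at 0.16, Ndufa12 at 0.16, Ndufa7 at 0.15 and Ndufa6 at 0.14 (log2 differences). Ndufa7 was the exception at an unadjusted p of 0.247, and it varied most on galactose (coefficient of variation 23.3%), from 28.4 CPM in replicate 7 to 92.3 CPM, around a median of 77.2 CPM. Its glucose libraries spanned 51.0 to 82.2 CPM with a median of 63.7 CPM.

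Ndufab1, the mitochondrial acyl carrier protein, is bound in complex I by the LYR-motif subunits Ndufa6 and Ndufb9 and also serves mitochondrial fatty acid synthesis. It had 91.4, 135 and 156 CPM in the lowest, median and highest galactose library and 101, 115 and 141 CPM on glucose. The galactose group held both the lowest and the highest library for this gene (log2 difference 0.18 ± 0.08, edgeR p = 0.0382 unadjusted and 0.323 adjusted).

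All 9 subunits placed in the part of the membrane arm near the peripheral arm were positive (median log2 difference 0.20). An unadjusted p under 0.05 was found for 6 of them. Over all tested genes 49.5% were positive and 8.63% higher at that p. Ndufa11, a membrane-spanning subunit, had 101, 144 and 160.2 CPM in the lowest, median and highest galactose library, against 107, 116 and 136 CPM in glucose libraries. It stood above the highest glucose library in 9 of 12 galactose libraries, while replicate 7 lay below all glucose libraries. The difference came to 0.27 ± 0.06 (log2), at an edgeR p of 0.000217 unadjusted and 0.135 adjusted. Ndufa13, also known as GRIM-19, had the largest difference of the 9, 0.30 ± 0.09. The cysteine-rich subunits of the intermembrane space Ndufs5 and Ndufa8 stood at 0.26 and 0.20, Ndufc2 at 0.21, the kinase-like Ndufa10 at 0.17, Ndufc1 at 0.16, Ndufa3 at 0.15 and Ndufa1 at 0.12 (log2 differences). The last 3 missed an unadjusted p of 0.05. Ndufa1 and Ndufb11 lie on the X chromosome, and without galactose replicate 12 they stood at 0.13 and 0.17.

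The 10 subunits of the far part of the membrane arm held both the largest and the smallest differences (median 0.19). All 10 were positive, against 49.5% of all tested genes. At an unadjusted p under 0.05, 7 were higher, against 8.63%. Ndufb8, a membrane-spanning subunit, had 64.1, 108 and 127 CPM in the lowest, median and highest galactose library, against 66.4, 75.3 and 99.6 CPM on glucose. It exceeded the highest glucose library in 8 of 12 galactose libraries (log2 difference 0.35 ± 0.10, edgeR adjusted p = 0.148). Ndufb9, a LYR-motif subunit, had 63.8, 92.1 and 116 CPM on galactose, against 57.6, 69.7 and 95.1 CPM on glucose. Here 10 of 12 galactose libraries lay above the glucose median (0.34 ± 0.09, edgeR adjusted p = 0.138). Ndufb7, a subunit of the intermembrane space, had 112, 166 and 189 CPM on galactose, against 103, 129.9 and 156 CPM on glucose. It lay above the highest glucose library in 7 of 12 galactose libraries (0.28 ± 0.08, edgeR adjusted p = 0.160). Ndufb10 stood at 0.22, Ndufb6 at 0.21, Ndufb11 at 0.17, Ndufb5 at 0.14 and Ndufb3 at 0.14 (log2 differences), with an unadjusted p of 0.0782 for Ndufb3.

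Ndufb4 and Ndufb2, both small accessory subunits of the far membrane arm, had the largest p of all members. Ndufb4 had 16.5, 27.9 and 33.2 CPM in the lowest, median and highest galactose library, against 18.9, 23.8 and 36.4 CPM on glucose. The highest library was a glucose one and the lowest a galactose one, and 9 of 12 galactose libraries lay above the glucose median (0.10 ± 0.11, edgeR p = 0.365 unadjusted and 0.709 adjusted). Ndufb2 had 3.40, 4.56 and 6.01 CPM on galactose, against 3.05, 4.497 and 5.02 CPM on glucose. The medians were close and 6 of 12 galactose libraries lay above the glucose median (0.03 ± 0.11, edgeR p = 0.750 unadjusted and 0.913 adjusted). Ndufa4 carries the name of a complex I subunit but was later found to belong to cytochrome c oxidase, complex IV. It had 168, 199 and 230.4 CPM on galactose, against 157, 171 and 206 CPM on glucose, and 10 of 12 galactose libraries lay above the glucose median (0.19 ± 0.06, edgeR adjusted p = 0.162).

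**Figure D2:**
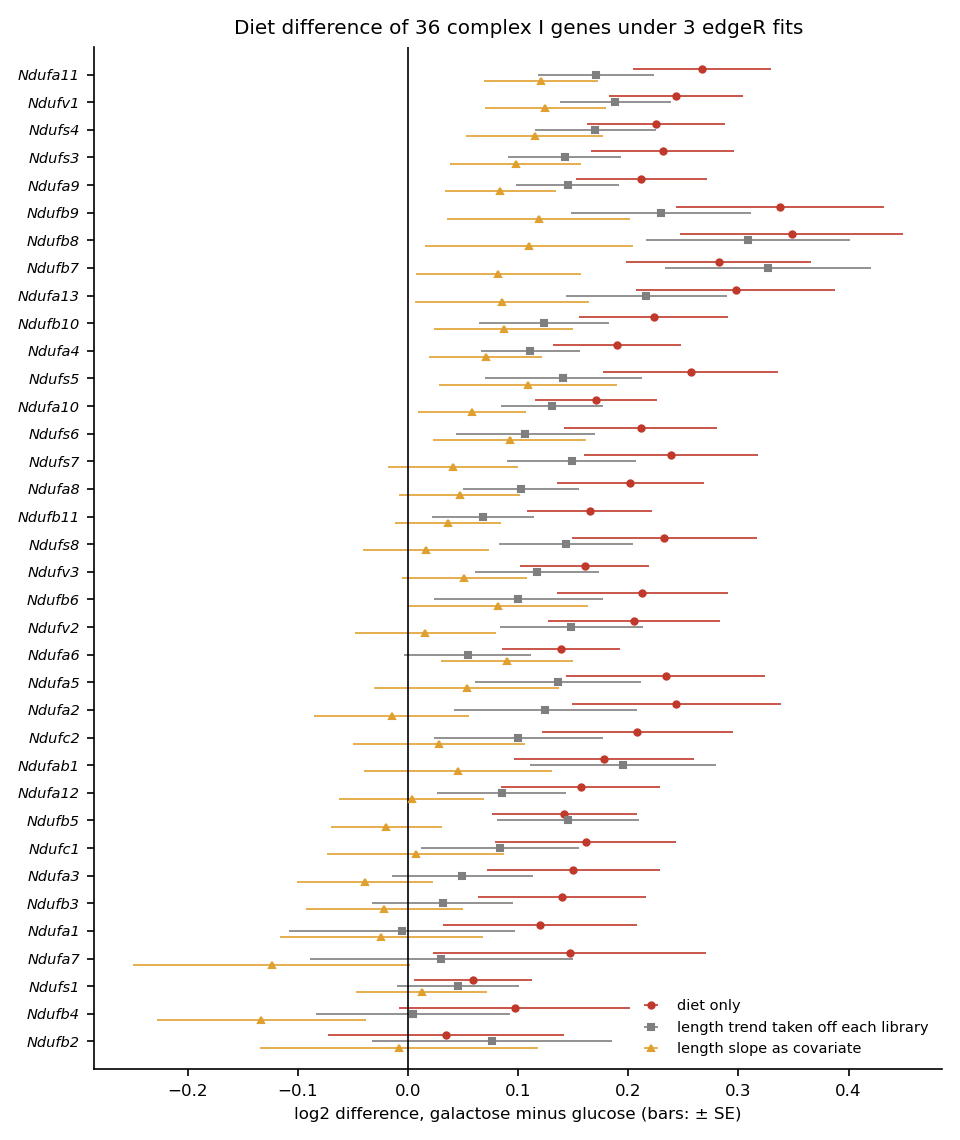
Log2 difference, galactose minus glucose (horizontal axis), of each of the 36 genes, ordered from the smallest p at the top to the largest at the bottom, with bars of ± SE. Red circles are the fit on diet alone, all above 0, from 0.03 to 0.35. Grey squares have the length trend of each library taken off (35 above 0), and yellow triangles have the length slope of each library as a covariate (28 above 0).

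Levels differed far more between subunits than between diets. Per kilobase of principal transcript, Ndufa4, at 324 CPM per kb on galactose and 283.6 on glucose, and Ndufa6, at 313 and 284.4, had the highest levels. Ndufv1, at 97.7 on galactose and 82.6 on glucose, and Ndufs3, at 101 and 85.8, lay in the middle of the order. Ndufb4 was low at 27.5 on galactose and 25.7 on glucose, and Ndufb2 lowest at 1.04 and 1.01 CPM per kb. The level of Ndufb2 is uncertain, since it rests on 47 to 99 counts per library and on a principal transcript of 4371 bases, and its exons overlap those of 3 other genes (7.94% of exon bases). Reads that align to several places, 8.64% of all reads, and reads that fall on more than 1 gene, 1.41%, are counted for no gene in these files. Of the stretches of 50 bases in the principal transcript, 39.7% also occur in transcripts of other genes for Ndufs3, 36.98% for Ndufb4, 34.1% for Ndufb6 and 31.1% for Ndufs5, so the levels of these genes are uncertain. For Ndufb2 it was 5.39%, and for Ndufv1, Ndufs4 and Ndufs8 0%. In Ndufb6 39.0% and in Ndufa13 29.98% of exon bases also lie in an exon of another gene on the other strand, and in Ndufb9 19.5% on the same strand. Whether the authors counted by strand is not given, so reads of such pairs cannot be told apart here.

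The subunits moved together from mouse to mouse. With each diet's mean taken off, the correlation between pairs of members across 23 libraries had a median of 0.67, and 629 of 630 pairs were above 0. The correlation of a member with the mean of the others had a median of 0.80, with Ndufs7 at 0.93 and Ndufb10 at 0.92 highest and Ndufb2 at 0.33 and Ndufa6 at 0.36 lowest. Of 13369 other tested genes, 126 reached that median with the mean of the 36. Those closest, chosen after their values were seen, were Cox6b1 (0.95), Uqcrq (0.95), Uqcr11 (0.95) and Uqcr10 (0.94), subunits of complexes IV and III. These correlations are descriptions over libraries that share depth, handling and transcript length trends.

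Replicate 7 on galactose held the lowest galactose value for 28 of the 36 genes, and glucose replicate 9 the highest glucose value for 17. The mean log2 CPM of the 36 was lowest in galactose replicate 7 at 6.06, with a galactose median of 6.53 and a highest value of 6.67. On glucose it ran from 6.17 over a median of 6.23 to 6.51 in replicate 9. In 10 of 12 galactose libraries it lay above the glucose median, in 7 above the highest glucose library, and 0 glucose libraries lay below galactose replicate 7. For single members, 10 or more galactose libraries lay above the glucose median in 25 of 36, against 11.7% of all tested genes. The difference of means was 0.19, and 0.23 without replicate 7.

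Without galactose replicate 7, edgeR called 15 of the 36 genes higher at an adjusted p under 0.05, against 1.31% of all tested genes. Those of smallest adjusted p were Ndufa11 (0.0170), Ndufb8 (0.0339), Ndufs3 (0.0364) and Ndufv1 (0.0364). Leaving out the library lowest for these genes widens the difference by itself. DESeq2 called 2, Ndufa11 (adjusted p = 0.0219) and Ndufv1 (0.0322), against 0.47% of all tested genes, and limma-voom with sample quality weights called 13, against 1.06%. Unweighted limma-voom called 0, with 26 higher at an unadjusted p under 0.05, against 8.21% of all tested genes. Without galactose replicate 12, edgeR called 0, and 27 were higher at an unadjusted p under 0.05, against 8.45%. All 36 were then positive, against 47.2%, with a median log2 difference of 0.21.

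Short transcripts had higher differences than long ones, and complex I genes are short. Their longest transcripts had a median of 1026 bases, against 3228 for all tested genes, and 33 of 36 were shorter than that. When tested genes were sorted into 10 length groups, the shortest group (up to 1206 bases) held 20 of the 36. Their median log2 difference was 0.21, against 0.12 for the other genes there, and the other genes of the longest group had -0.11. In the shortest group 15 of 20 had an unadjusted p under 0.05 and were higher, against 19.3% of its other genes, and 18 of 20 lay above its median. Over all groups, 34 of 36 lay above the median of other genes in their own length group, and 21 of 36 above its upper quartile. The median excess over genes of like length was 0.11, compared with 0.21 with no regard to length. The exceptions were Ndufb4 at -0.03 and Ndufa1 at -0.00256. The largest excess belonged to Ndufb7 (0.32) and Ndufb8 (0.31), whose longest transcripts, of 4435 and 2142 bases, are far longer than their principal ones of 623 and 680 bases. With length groups built on the principal transcript the median excess was 0.09, and 34 of 36 again lay above the median of their group.

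**Figure D3:**
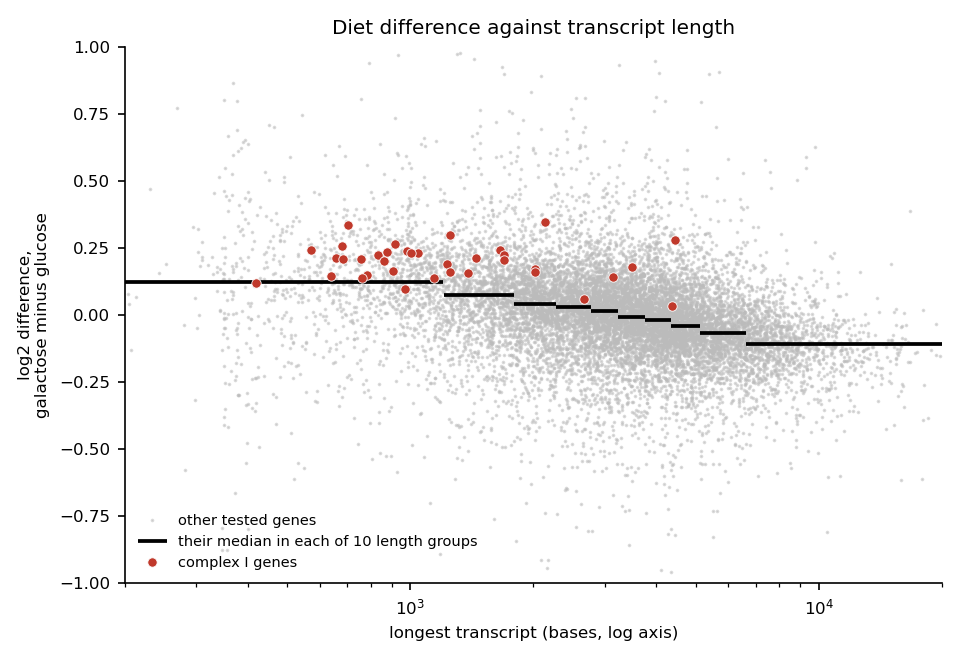
Log2 difference, galactose minus glucose (vertical axis), against the longest transcript in bases (horizontal log axis) for complex I genes (red) and other tested genes (grey). Black bars are medians of the other genes in 10 length groups, falling from 0.12 to -0.11, and 34 of 36 red points lie above the bar of their group. A few grey points, 26 beyond ± 1 on the vertical axis and 27 beyond the horizontal limits, are not drawn.

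The length slope of a library is how far its log2 CPM, set against the average library, shifts per doubling of transcript length. It was computed without genes of respiration and the ribosome. It was -0.0284 ± 0.0541 on galactose and 0.0310 ± 0.0441 on glucose (SD, n = 12 and 11). Galactose replicate 7 had the highest slope of its group, 0.0769, and glucose replicate 9 the lowest of its group, -0.0578. With diet means taken off, the mean of the 36 genes had a correlation of -0.83 with that slope across 23 libraries. Within a diet, libraries with relatively more short transcripts thus tended to hold more complex I transcript.

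A pair of fits took length into account. In the first, a smooth trend of each library on transcript length, fitted on genes other than the 36, was taken off as an offset. The median log2 difference then stood at 0.12, with 35 of 36 positive, against 52.7% of all tested genes, and 18 at an unadjusted p under 0.05 and higher, against 7.47%. Ndufv1 had 0.19 (unadjusted p = 0.000862), Ndufb7 0.33 (0.00164), Ndufb8 0.31 (0.00245) and Ndufa11 0.17 (0.00328), all by edgeR. Fitting that trend without genes of respiration and the ribosome also gave 18, against 7.59%. With lengths of the principal transcript the median was 0.10, and 12 had an unadjusted p under 0.05, against 6.89% of all tested genes. Ndufv1 then had 0.19, Ndufb7 0.15, Ndufb8 0.22 and Ndufa11 0.14. In the second fit the length slope of each library entered as a covariate beside diet. That slope was computed over all tested genes with a known length. It thus included the 36 and the other genes of respiration and the ribosome. The median was 0.05, 28 of 36 were positive, against 51.4% of all tested genes, and 2 had an unadjusted p under 0.05, Ndufa11 (0.12, p = 0.0281) and Ndufv1 (0.12, p = 0.0325) by edgeR, against 3.8%. In both fits 0 genes of the series passed at an adjusted p under 0.05. Because slope and diet moved together across libraries, the covariate and the diet cannot be told apart in full.

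**Figure D4:**
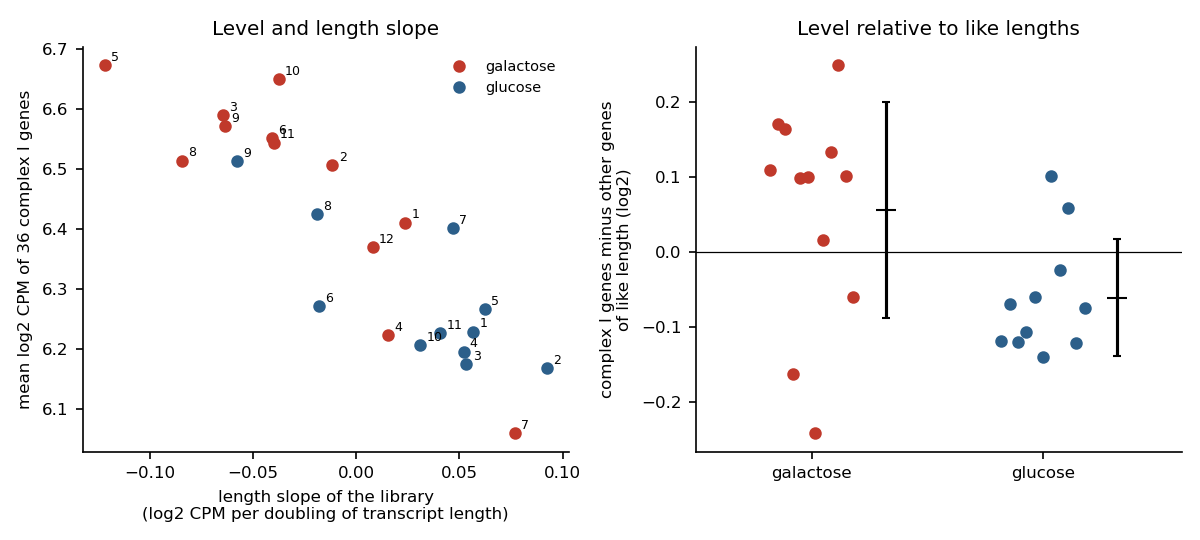
Left, mean log2 CPM of the 36 genes (vertical) against the length slope of the library (horizontal), each point a library with its replicate number. Right, the level of the 36 genes relative to other genes of like length, in log2 units around the mean of all libraries, with mean ± SD. On the left the libraries run from galactose replicate 5 (6.67) down to galactose replicate 7 (6.06). On the right galactose libraries reach from -0.24 to 0.25 and glucose libraries from -0.14 to 0.10.

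Relative to other genes of like length, the mean of the 36 averaged 0.0561 ± 0.144 on galactose and -0.0612 ± 0.0779 on glucose (SD, n = 12 and 11, log2 units around the mean of all libraries). In 10 of 12 galactose libraries it lay above the glucose median. The galactose group held both the lowest value, -0.24 in replicate 7, and the highest, 0.25 in replicate 10.

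The other genes of complex I are its assembly factors and its mitochondrially encoded core. Of 17 assembly factors listed 16 were tested, and 16 had positive differences, 5 of them at an unadjusted p under 0.05 (median 0.16). Of all tested genes, 49.5% were positive and 8.63% were higher at that p. Ndufaf5, a methyltransferase-like factor, averaged 6.09 ± 1.02 CPM in galactose and 4.51 ± 0.998 CPM in glucose libraries (SD, n = 12 and 11), a log2 difference of 0.43 ± 0.12 (edgeR adjusted p = 0.138), larger than that of any subunit. Ndufaf3, which acts early in assembly, and Foxred1 stood at 0.26 ± 0.09 and 0.20 ± 0.07. Of the 7 mitochondrially encoded subunits 6 were tested, with 2 positive and 4 negative differences, and 0 had an unadjusted p under 0.05. mt-Nd5 averaged 4308 ± 905 CPM in galactose and 4892 ± 1054 CPM in glucose libraries (log2 difference -0.18 ± 0.12, edgeR adjusted p = 0.482). mt-Nd6, at 1.56 and 2.38 CPM, had -0.61 ± 0.44 and mt-Nd2 -0.12 ± 0.11. mt-Nd1, named after its values were seen as the most abundant of them, averaged 8766 ± 1327 CPM in galactose and 8715 ± 1675 CPM in glucose libraries. The transcripts of the core membrane subunits thus had no positive median (-0.10), unlike the nuclear ones. Whether the nuclear and mitochondrial parts differ from each other was not tested.

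Nuclear genes of the other complexes were set beside complex I by the same fit, and 0 of them passed at an adjusted p under 0.05. Complex II, which feeds electrons from succinate, was positive in 4 of 4 genes (median 0.19), with Sdhb at 0.24, Sdhd at 0.26 and Sdha at 0.14. Complex III had 9 of 9 positive (0.22), with Uqcrq at 0.31, Uqcr10 at 0.31 and Uqcr11 at 0.29. Complex IV had 12 of 12 (0.23), with Cox5b at 0.29, Cox7a1 at 0.31 and Cox5a at 0.25. ATP synthase had 14 of 14 (0.21), with Atp5h at 0.22, Atp5e at 0.39 and Atp5j2 at 0.28 (log2 differences, SE 0.05 to 0.10). With the length slope as covariate the median was 0.05 for complex I, against 0.12 for complex II, 0.07 for complex III, 0.08 for complex IV and 0.06 for ATP synthase. Other mitochondrial proteins, such as the import subunits Timm23 (0.22) and Tomm20 (0.17) and the prohibitin Phb (0.27), had a median of 0.10 with 10 of 11 positive. By the fit on diet alone, 49.5% of all tested genes were positive. Of genes other than the 36 in the shortest length group, 75.9% were. Among 8 regulators of mitochondrial genes, Esrra, a nuclear receptor, averaged 276 ± 19.2 CPM in galactose and 240.5 ± 20.2 CPM in glucose libraries (log2 difference 0.20 ± 0.05, edgeR adjusted p = 0.138, and 0.17 with the slope as covariate). Gabpa, the ETS factor, stood at -0.14 ± 0.06, Yy1 at -0.06 ± 0.05 and Nrf1, named for its motif, at 0.02 ± 0.07, and the list had a median of 0.00494. The 77 cytosolic ribosomal protein genes tested, which are short as well (median 1094 bases), had a median of 0.13 and 73 positive, with 10 at an unadjusted p under 0.05. Of all tested genes 8.63% were higher at that p, and of genes other than the 36 in the shortest length group 19.3%. Of the ribosomal genes, Fau stood at 0.26, Rpl41 at 0.35 and Rpl11 at 0.23. With the slope as covariate their median was -0.09, and 6 of 77 were positive.

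**Figure D5:**
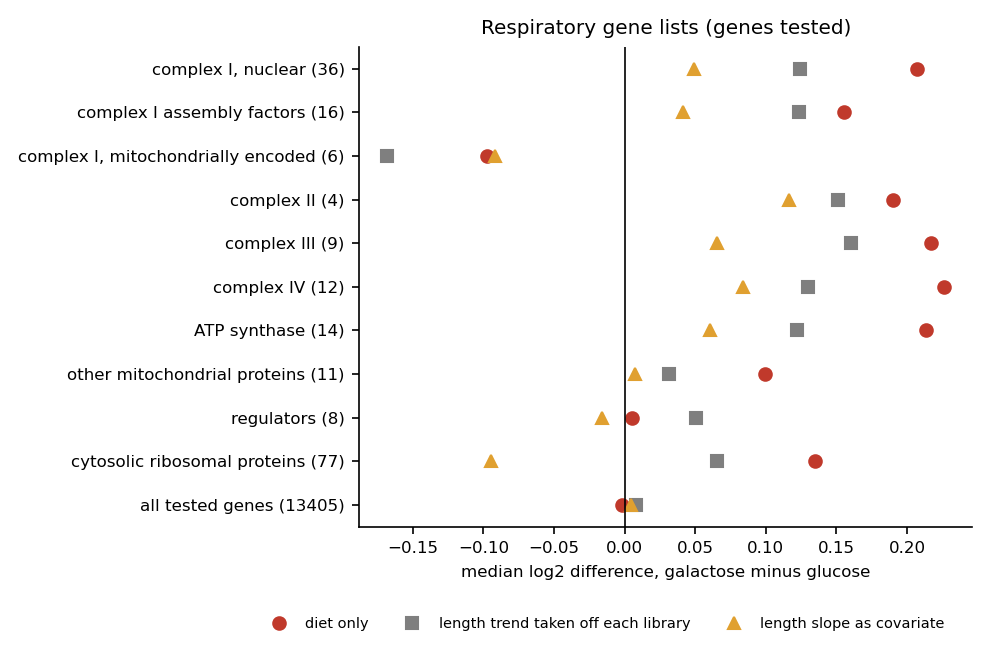
Median log2 difference, galactose minus glucose (horizontal axis), of complex I and other gene lists, with the number of genes tested in brackets. Red circles are the fit on diet alone, grey squares the fit with the length trend taken off, and yellow triangles the fit with the length slope as covariate. Complex I stands at 0.21, 0.12 and 0.05, and its mitochondrially encoded subunits at -0.10, -0.17 and -0.09.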

How the data were processed

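Each mouse has 1 deposited file of raw counts, holding 55416 genes and 5 further rows of unassigned reads. Per the submitters' processing notes, STAR and HTSeq were used on GRCm39. Of versions, annotation release and strand setting: not given in the sources used here. Unassigned rows held 13.5% of reads and were left out. Depth was 15382583 to 17174721 counts in genes.

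The members and lists were chosen with earlier results of these data known. Symbols were matched on Ensembl identifiers, and transcript lengths, for 99.9% of tested genes, from GENCODE M21 (GRCm38), whose coordinates were not used with the counts. The diet test was that of edgeR 4.0.16 (R 4.3.3, filterByExpr, TMM, quasi-likelihood F test, diet as the only term, Benjamini-Hochberg over all genes). CPM use TMM-scaled totals. Log2 CPM have a prior count of 2. In counts simulated for each gene independently, with no length trend, the test recovered 48% of genes changed 1.25-fold and 72% of those changed 1.5-fold. Alternatives were other scalings and filters, DESeq2 1.42.0, limma-voom (limma 3.58.1), each library left out, and length as an offset or covariate. Over 121 pairs within diets, chi-square per degree of freedom was 13.2 to 51.0, far above sampling noise. Replicate numbers follow deposit order. Full values are given for the 8 members of smallest and 3 of largest p and the first of each role. Each mouse is a separate animal, and intervals and errors cover the spread between mice.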

Additional observations from a re-analysis of the deposited data

How the results depend on the processing

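No paired analysis was possible because the labels give no replicate number shared by the diets. Of 35 alternatives, 23 only leave out a library. In the main fit 0 members passed, so a value kept its side of the threshold by not passing. A smaller difference of the same sign also counts as kept. Of 1260 member values under the 35 alternatives, 1216 kept their sign and their side of the threshold and 30 passed it in the same direction. The other 14 changed sign. With the length slope as covariate these were Ndufa2 (-0.0148), Ndufa7 (-0.12), Ndufa1 (-0.0245), Ndufa3 (-0.0395), Ndufb2 (-0.00834), Ndufb3 (-0.0215), Ndufb4 (-0.13) and Ndufb5 (-0.0197). Ndufa1 had -0.00525 with the length offset, -0.00247 with the trend fitted without respiration and ribosome and -0.0203 on the principal transcript, where Ndufb4 had -0.00532. With each library left out in turn, Ndufb2 ran from -0.0136 (without galactose replicate 3) to 0.0672 (without galactose replicate 7), with -0.00885 without glucose replicate 4. The median of the 36 was 0.0490 with the slope as covariate. Members at an unadjusted p under 0.05 numbered 2 with the slope as covariate, 18 with either offset on the longest transcript and 12 on the principal transcript, an alternative chosen after seeing the data. The cause was not tested. Members passing at an adjusted p under 0.05 numbered 2 by DESeq2 and 13 with quality weights, and genes of the whole series 86 and 167. Over the 23 fits that leave out a library, member calls ran from 0 to 15, calls over all genes from 0 to 219, members at an unadjusted p under 0.05 from 25 to 32, positive members from 35 to 36 and the median from 0.19 to 0.24. The highest calls came without galactose replicate 7. The smallest fold simulated at this depth, larger than the median fold of the 36 (1.15), was recovered in 48% of cases.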
